A study of Homo sapiens with 15 samples.

Results

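AKAP12 and 8 further genes of protein kinase A anchoring and assembly were followed across 15 RNA-seq libraries of A549 cells, an epithelial line from a human lung adenocarcinoma. The 9 genes, of 26475 in the deposited count table, are the anchoring proteins AKAP12, AKAP1, AKAP11 and AKAP13, the catalytic subunits PRKACA and PRKACB, and the regulatory subunits PRKAR1A, PRKAR2A and PRKAR2B. AKAP12 was chosen by its log2 difference between Compound A and IL4 in earlier results of these data, and the other 8 were chosen beside it as genes of the same kinase and its anchors. The levels with Compound A are therefore given as a description with no test. All 9 genes had enough counts to be tested, and none had a fractional count in any library.

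The libraries form 5 groups of 3. One group received 10 ng/ml of the type 2 cytokine interleukin-4 (IL4) with an agent named only as Compound A. In the next, 10 ng/ml IL4 was combined with a pooled siRNA against ALOX15, at 1 uM, and in another IL4 was combined with a pooled non-targeting siRNA as control. The other groups are IL4 alone and untreated cells. The labels give 48 h of treatment for the series. The sources used here do not give the dose or nature of Compound A, the dose of the control siRNA, or any vehicle or mock transfection. Every group is the same cell line. Nothing says that replicates are separate cultures, so p-values measure the spread of these samples only, and that spread may be technical.

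Protein kinase A is held inactive as a complex of regulatory and catalytic subunits. Cyclic AMP, made by adenylyl cyclases and broken down by phosphodiesterases, binds the regulatory subunits and frees the catalytic ones. A-kinase anchoring proteins (AKAPs) hold the regulatory subunits near membranes, mitochondria or the cytoskeleton and bring other kinases, phosphatases and phosphodiesterases to the same place. In airway epithelium the pathway is known for opening chloride channels and speeding ciliary beat. AKAP12, also called gravin, is a scaffold at the cell membrane that binds type II regulatory subunits and protein kinase C.

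AKAP12 lies on the forward strand of chromosome 6, at 151239999 to 151358557 of GRCh38 in GENCODE gene models. RefSeq (GRCh38.p14) gives it 3 separate starts. The 250 bases before each are shown because AKAP12 was the member that differed most between groups, with E-box matches (CACGTG, which reads the same on both strands) in capitals. The first window is chr6:151239717-151239966, the second chr6:151325281-151325530 and the third chr6:151341456-151341705, all on the forward strand.
AKAP12 start 1: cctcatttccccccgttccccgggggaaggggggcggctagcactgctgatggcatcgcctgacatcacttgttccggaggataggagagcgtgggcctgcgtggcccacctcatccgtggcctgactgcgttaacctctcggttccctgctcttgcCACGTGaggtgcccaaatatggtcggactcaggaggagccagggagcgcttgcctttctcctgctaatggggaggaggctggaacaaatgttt
AKAP12 start 2: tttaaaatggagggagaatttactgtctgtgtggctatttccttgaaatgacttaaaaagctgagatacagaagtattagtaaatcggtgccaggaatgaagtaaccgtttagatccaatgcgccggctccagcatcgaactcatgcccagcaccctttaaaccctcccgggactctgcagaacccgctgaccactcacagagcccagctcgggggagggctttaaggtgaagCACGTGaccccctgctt
AKAP12 start 3: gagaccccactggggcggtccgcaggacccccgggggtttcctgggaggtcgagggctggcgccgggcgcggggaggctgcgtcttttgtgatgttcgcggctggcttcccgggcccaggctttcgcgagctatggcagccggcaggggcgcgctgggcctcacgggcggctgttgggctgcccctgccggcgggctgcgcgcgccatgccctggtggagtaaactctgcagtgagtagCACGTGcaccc
Each of the 3 AKAP12 windows held 1 such match, with its first base at -93, -17 and -11 from the start, counted back from -1. The E-box was searched for after these sequences were seen. Over all 9 genes, 5 of 23 windows held it, against 6.34% of 35116 windows of the same length in the RefSeq table. Of these 5, 3 are the AKAP12 windows already seen, so nothing is read from this count. The cyclic AMP response element TGACGTCA was in none of the AKAP12 windows and in 1 of the 23, before a PRKAR1A start, against 1.65% of all windows. Its shorter core TGACG, searched on both strands and contained in the full element, was in none of the AKAP12 windows and in 7 of the 23, against 21.2% of all. Some start windows overlap, and 1 of these matches is shared by 2 AKAP1 windows. The STAT6 site, TTC and GAA with any 4 bases between them, was in none of the 23, against 5.38% of all. These matches are letters in a window, and the table counts reads per gene, so it does not show which start was used.

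Totals ran from 6407936 to 11031246 counts per library. ALOX15, the target of the siRNA, averaged 0.236 ± 0.0911 counts per 1e6 counts (CPM) with ALOX15 siRNA and 3.58 ± 0.313 CPM with control siRNA (SD, n = 3 each). Keratins of simple epithelium were abundant in all libraries (KRT8 at a mean of 4113 CPM, KRT18 at 3622 CPM). The labels call A549 alveolar type II-like. SFTPB and SLC34A2, defining genes of that cell type, were at 0 in every library, and SFTPC and NKX2-1 did not exceed 0.179 and 0.131 CPM. Of the same list of alveolar and airway markers, ABCA3 averaged 56.1 CPM over all libraries (35.9 to 71.8 CPM) and LAMP3 3.24 CPM. Of the other cell types' markers, PTPRC and CD3E of leukocytes, KDR and CLDN5 of endothelium and COL1A2 of fibroblasts were at 0 throughout. Others on these lists were present, with ACTA2 at a mean of 12.8 CPM, COL1A1 at 12.5 CPM and ESAM, of endothelium, at 2.38 CPM. With IL4 alone against untreated COL1A1 rose (log2 difference 1.44, SE 0.17), as did ESAM (2.29, SE 0.45), which was at 0.659 CPM untreated. The summed level of 10 leukocyte markers, mostly CD68, was 8.60 to 12.9 CPM with Compound A, 17.0 to 18.6 CPM with ALOX15 siRNA, 14.8 to 18.3 CPM with control siRNA, 18.0 to 24.6 CPM with IL4 alone and 12.2 to 16.1 CPM untreated. That of 10 fibroblast and mural markers was 25.8 to 30.9 CPM with Compound A, 32.7 to 38.1 CPM with ALOX15 siRNA, 32.3 to 36.4 CPM with control siRNA, 33.7 to 44.3 CPM with IL4 alone and 24.8 to 28.1 CPM untreated. Both sums were higher in every library with IL4 alone than in any with Compound A or untreated, and their part in the levels given here was not tested. IL4 replicate 1 differed most from the libraries of its own group, with a chi-square per degree of freedom of 9.66 and 13.0 against them, where all other pairs within a group lay between 1.59 and 5.17. For the 9 genes, differences printed here that involve IL4 alone are also given without IL4 replicate 1 where they moved by over 1.5 times. For single genes of the other lists, log2 differences without that library are not given.

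AKAP12 had the widest spread among the 9 genes, with 2.24 times as much in its highest group as in its lowest. It had 159, 181 and 179 CPM with Compound A, 82.5, 72.3 and 77.4 CPM with ALOX15 siRNA, 95.1, 92.5 and 88.3 CPM with control siRNA, 75.3, 85.7 and 93.1 CPM with IL4 alone, and 133, 158 and 157 CPM untreated. The Compound A and untreated libraries were thus all above every library of the other 3 groups. The order of the means was Compound A (173 ± 12.2 CPM), untreated (149 ± 14.4 CPM), control siRNA (92.0 ± 3.41 CPM), IL4 (84.7 ± 8.94 CPM) and ALOX15 siRNA (77.4 ± 5.12 CPM; SD, n = 3 each). Libraries of neighbouring groups overlapped between control siRNA and IL4 and between IL4 and ALOX15 siRNA.

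AKAP12 fell with IL4 in both IL4 groups that had no Compound A and no ALOX15 siRNA. In a quasi-likelihood fit of all genes with edgeR, adjusted over 12795 genes, it was lower by 0.70 on the log2 scale with IL4 and control siRNA than untreated, a 1.62-fold decrease (log2 difference -0.70, SE 0.08, adjusted p = 3.3e-06). With IL4 alone it was 1.76-fold lower than untreated (log2 difference -0.81, SE 0.08, adjusted p = 3.8e-07), and without IL4 replicate 1 the difference was -0.74 (SE 0.08). Both calls held in all 24 alternative settings. The comparisons share the untreated libraries, and the IL4 libraries also stand in the Compound A comparison by which AKAP12 was chosen, whereas the control siRNA libraries do not. In bulk RNA, fewer cells that express a gene and less of its RNA per cell cannot be told apart.

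With Compound A, AKAP12 was 2.04-fold higher than with IL4 alone (log2 difference 1.03, SE 0.08), and 1.88-fold higher than with control siRNA (log2 difference 0.91, SE 0.08). Without IL4 replicate 1 the difference from IL4 was 0.95 (SE 0.08). The Compound A libraries were also above the untreated ones, at 159 to 181 CPM against 133 to 158 CPM, a log2 difference of 0.22 (SE 0.08). The gap between the lowest Compound A library and the highest untreated one was small beside the spread within either group.

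The ALOX15 siRNA libraries lay at 72.3 to 82.5 CPM of AKAP12, below all control siRNA libraries at 88.3 to 95.1 CPM. The log2 difference was -0.25 (SE 0.09) and did not pass (edgeR adjusted p = 0.32, unadjusted p = 0.011). It passed in a fit of these groups alone (adjusted p = 0.029) and after a correction for GC content (adjusted p = 0.043), and in none of the other 22 settings. IL4 replicate 1 is in neither group but shares the fit. Without it the difference was -0.25 (SE 0.07, edgeR adjusted p = 0.075). Control siRNA and IL4 alone were not told apart for AKAP12, with a log2 difference of 0.12 (SE 0.09, edgeR adjusted p = 0.90), or 0.04 (SE 0.08) without IL4 replicate 1.

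**Figure D1:**
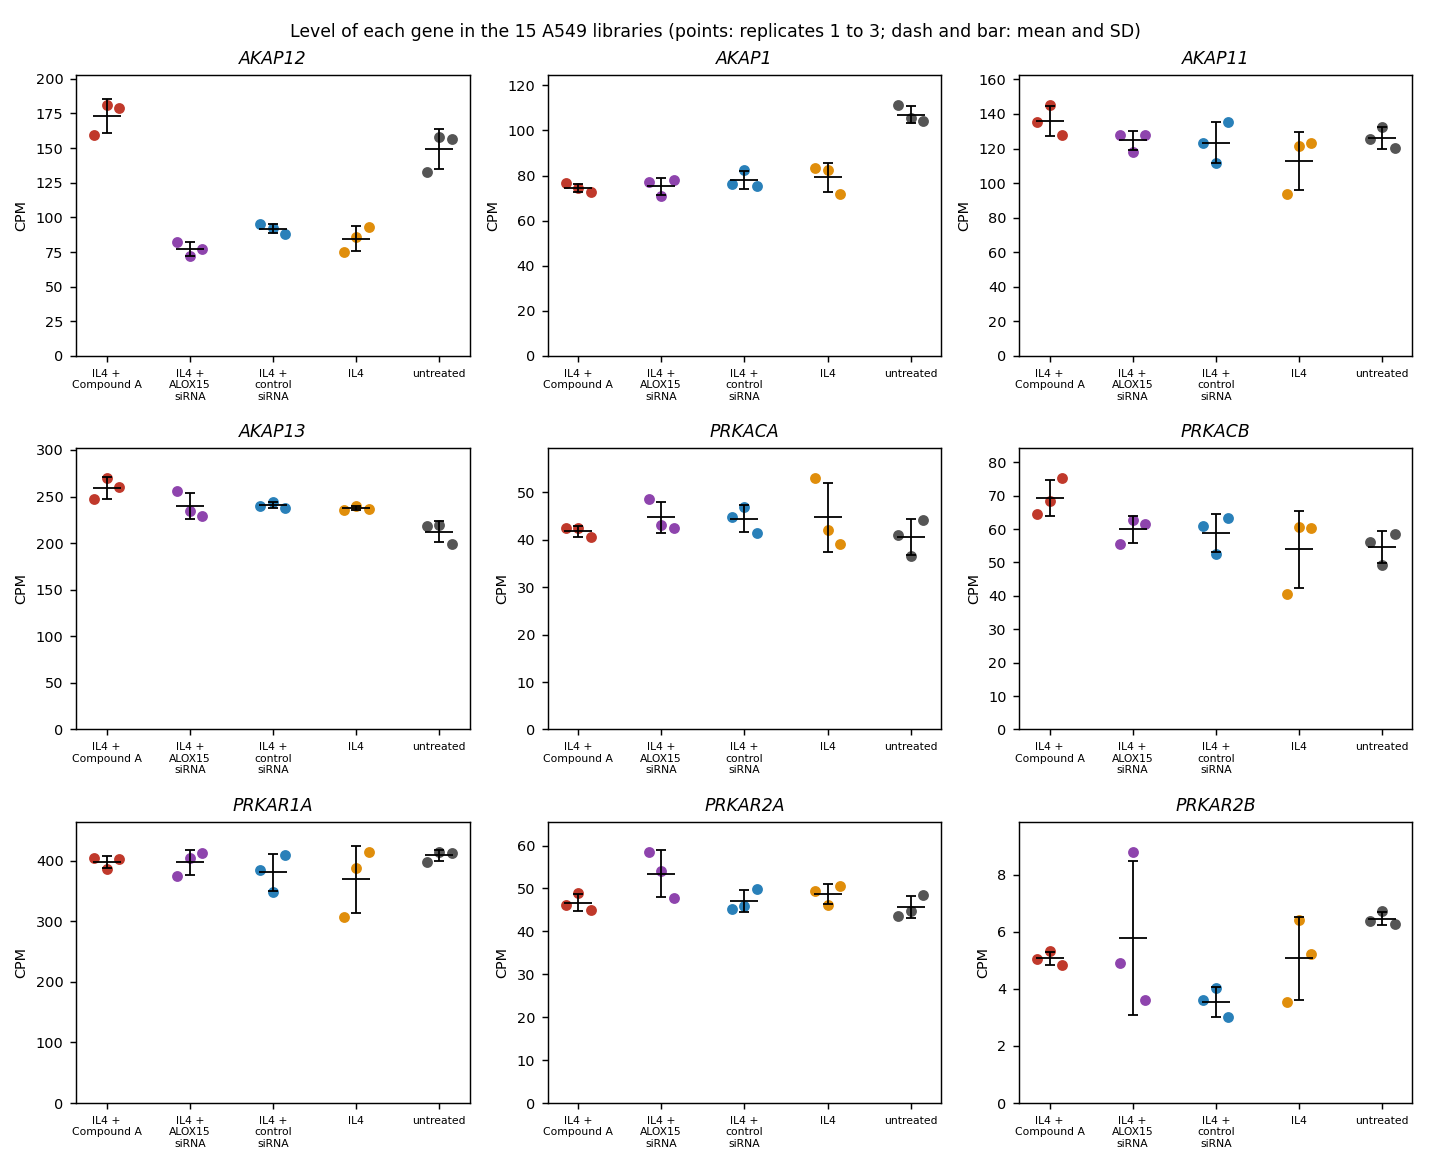
Level in CPM (vertical axes, from 0) of each of the 9 genes in the 5 groups (horizontal axes); points are the 3 libraries of a group, the dash is their mean and the bar their SD. For AKAP12 the Compound A libraries (159 to 181 CPM) and the untreated ones (133 to 158 CPM) stand above the other 9, and for AKAP1 the untreated libraries (104 to 111 CPM) stand above all others.

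AKAP1 (chromosome 17, 57085092 to 57121349, forward strand), which anchors the kinase to the outer mitochondrial membrane, fell with IL4, and its Compound A libraries lay among those of the other IL4 groups. It had 76.5, 74.5 and 72.7 CPM with Compound A, 77.1, 71.0 and 77.9 CPM with ALOX15 siRNA, 76.3, 82.6 and 75.2 CPM with control siRNA, 83.4, 82.6 and 71.7 CPM with IL4 alone, and 111, 105 and 104 CPM untreated. Every library that received IL4 was below every untreated one. The log2 difference was -0.46 (SE 0.07, edgeR adjusted p = 5.4e-05) between control siRNA and untreated and -0.44 (SE 0.07, adjusted p = 8.4e-05) between IL4 alone and untreated, and both calls held in all 24 settings. Compound A and IL4 alone differed by -0.09 (SE 0.07), or -0.05 (SE 0.07) without IL4 replicate 1, with overlapping libraries.

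AKAP13 (chromosome 15, 85380571 to 85749358, forward strand), an anchoring protein that also activates the small GTPase RhoA, was slightly higher with IL4. It had 247, 270 and 260 CPM with Compound A, 256, 235 and 229 CPM with ALOX15 siRNA, 240, 244 and 238 CPM with control siRNA, 236, 240 and 237 CPM with IL4 alone, and 218, 220 and 199 CPM untreated. All libraries with IL4 were above all untreated ones. The rise passed for control siRNA against untreated (log2 difference 0.18, SE 0.06, edgeR adjusted p = 0.034), but not without control siRNA replicate 1 or 2 or untreated replicate 3. For IL4 alone against untreated the difference was 0.16 (SE 0.06) with an adjusted p of 0.0504, just above the threshold, and it passed in 16 of 24 settings (adjusted p from 0.013 to 0.14). With Compound A it was 0.12 (SE 0.06) above IL4 alone and 0.29 (SE 0.06) above untreated, with libraries that did not overlap in either pair.

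AKAP11 (chromosome 13, 42272153 to 42323267, forward strand), which also binds the kinase GSK3B, varied little. It averaged 136 ± 8.74 CPM with Compound A, 125 ± 5.77 with ALOX15 siRNA, 123 ± 11.9 with control siRNA, 113 ± 16.6 with IL4 alone and 126 ± 6.23 untreated (SD, n = 3 each), and it passed in none of the comparisons tested. The lowest library of all 15 was IL4 replicate 1, at 93.6 CPM. With Compound A its libraries were above those with IL4 alone (log2 difference 0.27, SE 0.09), but without IL4 replicate 1 the difference was 0.16 (SE 0.07), and the Compound A and control siRNA libraries overlapped.

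Of the catalytic subunits, the enzymes that phosphorylate the kinase's substrates, PRKACB was highest with Compound A. PRKACB (chromosome 1, 84078062 to 84238498, forward strand), which encodes the beta catalytic subunit, had 64.5, 68.5 and 75.2 CPM with Compound A, 55.4, 62.8 and 61.5 CPM with ALOX15 siRNA, 60.9, 52.5 and 63.2 CPM with control siRNA, 40.7, 60.7 and 60.3 CPM with IL4 alone, and 56.2, 49.3 and 58.4 CPM untreated. The 3 Compound A libraries were above the other 12. The log2 difference from IL4 alone was 0.36 (SE 0.12), and 0.19 (SE 0.09) without IL4 replicate 1. Those from control siRNA and untreated were 0.23 (SE 0.12) and 0.34 (SE 0.12). That library is in neither pair, but it enters the spread that the fit shares. Without it the 2 differences were 0.23 (SE 0.08) and 0.34 (SE 0.08). With the GC trend of each library removed, the differences from IL4 alone and control siRNA were 0.18 and 0.13, and that from untreated was 0.37 (SE 0.07 each). With that correction PRKACB also passed in control siRNA against untreated (0.24, SE 0.07, edgeR adjusted p = 0.014), a comparison it did not pass otherwise. PRKACA (chromosome 19, 14091688 to 14118084, reverse strand), the alpha catalytic subunit, averaged 41.8 ± 1.11 CPM with Compound A, 44.7 ± 3.29 with ALOX15 siRNA, 44.4 ± 2.81 with control siRNA, 44.7 ± 7.26 with IL4 alone and 40.6 ± 3.84 untreated. Its libraries overlapped in all 7 comparisons, and the most extreme of the 15, at 52.9 CPM, was IL4 replicate 1. Per kilobase of exon, PRKACA made up 58.2 ± 2.50% of the summed catalytic subunit level with Compound A, 63.2 ± 3.18% with ALOX15 siRNA, 63.5 ± 3.62% with control siRNA, 65.5 ± 8.27% with IL4 alone and 63.2 ± 0.441% untreated. These shares depend on the length used, which joins all exons of a gene's coding transcripts (2732 bases for PRKACA, 6309 for PRKACB). In CPM over all libraries PRKACB was the higher, at 59.3 against 43.2.

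Among the regulatory subunits, PRKAR1A (chromosome 17, 68511780 to 68551319, forward strand), the type I alpha subunit found in most tissues, was the main transcript. It reached 74.4 CPM per kilobase of exon over all libraries, against 7.46 for PRKAR2A and 1.38 for PRKAR2B, and made up 88.5% to 89.9% of the summed regulatory subunit level in every group mean. It averaged 398 ± 10.3 CPM with Compound A, 397 ± 20.1 with ALOX15 siRNA, 381 ± 30.9 with control siRNA, 369 ± 55.9 with IL4 alone and 409 ± 9.01 untreated, and passed in no tested comparison with all libraries. With IL4 alone against untreated it passed without IL4 replicate 3 (log2 difference -0.24, edgeR adjusted p = 0.035), and without IL4 replicate 1 the difference was -0.03. FAM20A overlaps it on the opposite strand, and the sources used here do not say whether counting used strand.

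**Figure D2:**
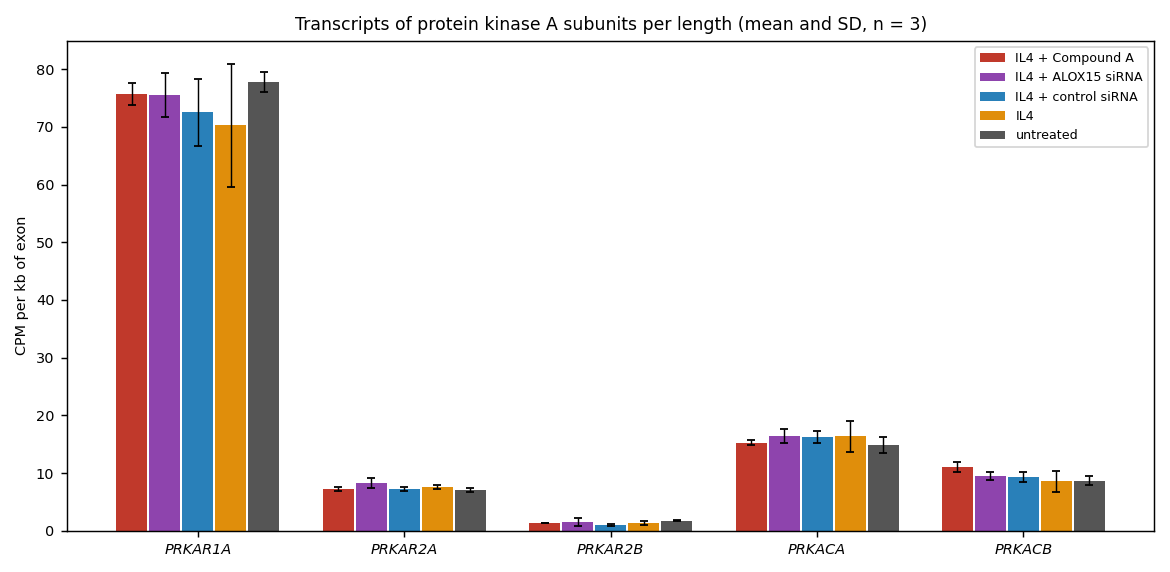
Mean level per kilobase of exon (vertical axis, CPM per kb, from 0) of the 3 regulatory and 2 catalytic subunit genes, with bars for the 5 groups and SD over 3 libraries. PRKAR1A, at 74.4 CPM per kb over all libraries, stands far above PRKACA at 15.8, PRKACB at 9.41, PRKAR2A at 7.46 and PRKAR2B at 1.38. The order of PRKACA and PRKACB depends on the exon lengths used.

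The type II regulatory subunits, to which AKAP12 binds, were at much lower levels. PRKAR2A (chromosome 3, 48744597 to 48847846, reverse strand) averaged 46.7 ± 2.02 CPM with Compound A, 53.5 ± 5.38 CPM with ALOX15 siRNA, 47.0 ± 2.58 CPM with control siRNA, 48.7 ± 2.33 CPM with IL4 alone and 45.6 ± 2.55 CPM untreated (SD, n = 3 each). It had 58.5, 54.0 and 47.8 CPM with ALOX15 siRNA and 45.2, 45.9 and 49.9 CPM with control siRNA, and the libraries overlapped. The log2 difference of 0.18 (SE 0.08) did not pass (edgeR adjusted p = 0.52, unadjusted p = 0.040), and PRKAR2A passed in no other tested comparison. An antisense gene, PRKAR2A-AS1, overlaps it and is in the table, so that reads of the pair may not be told apart.

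PRKAR2B (chromosome 7, 107044649 to 107161811, forward strand), the type II beta subunit, had 21 to 71 counts per library and so the widest errors. It had 5.06, 5.31 and 4.83 CPM with Compound A, 4.90, 8.80 and 3.62 CPM with ALOX15 siRNA, 3.62, 4.03 and 3.0 CPM with control siRNA, 3.55, 6.42 and 5.22 CPM with IL4 alone, and 6.36, 6.72 and 6.28 CPM untreated. It fell with control siRNA against untreated (log2 difference -0.87, SE 0.27, edgeR adjusted p = 0.026), a call that was lost without any 1 of control siRNA replicate 1 or 3 or untreated replicate 1, 2 or 3. With IL4 alone against untreated the difference was -0.35 (SE 0.24, adjusted p = 0.34), or -0.15 (SE 0.24) without IL4 replicate 1, and with ALOX15 siRNA against control siRNA it was 0.68 (SE 0.28, adjusted p = 0.43), where 1 library at 8.80 CPM stood above the rest.

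Counted together, 0 members rose and 2 fell with IL4 alone against untreated, where 22.9% of all genes tested were called in either direction. With control siRNA against untreated 1 rose and 3 fell, where 19.3% of all genes were called. None was called between ALOX15 siRNA and control siRNA, where 0.696% of all genes were called (1140 genes at an unadjusted p under 0.05), or between control siRNA and IL4 alone, where edgeR called 0% (628 genes at an unadjusted p under 0.05, and 2 genes called by DESeq2). Between Compound A and IL4 alone, 4 members had all Compound A libraries higher (AKAP12, AKAP11, AKAP13 and PRKACB) and none had all lower, where 16.1% of all genes were higher and 15.7% lower in this sense. The 2 of 9 with IL4 alone is near the background share. That count includes AKAP12, which was chosen by a comparison that used the IL4 libraries, so nothing is read from it. The 4 of 9 with control siRNA is above its background share, and includes the calls of AKAP13 and PRKAR2B that single libraries decide. Nothing is read from the count with Compound A, since the choice of AKAP12 used that comparison. The median log2 difference of the 9 genes was 0.11 between Compound A and IL4 alone, against 0.00 over all genes, and -0.15 between IL4 alone and untreated, against -0.02 over all genes. The medians of the 9 genes were 0.04 and -0.03 without IL4 replicate 1, and with the GC correction 0.01 and 0.03.

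**Figure D3:**
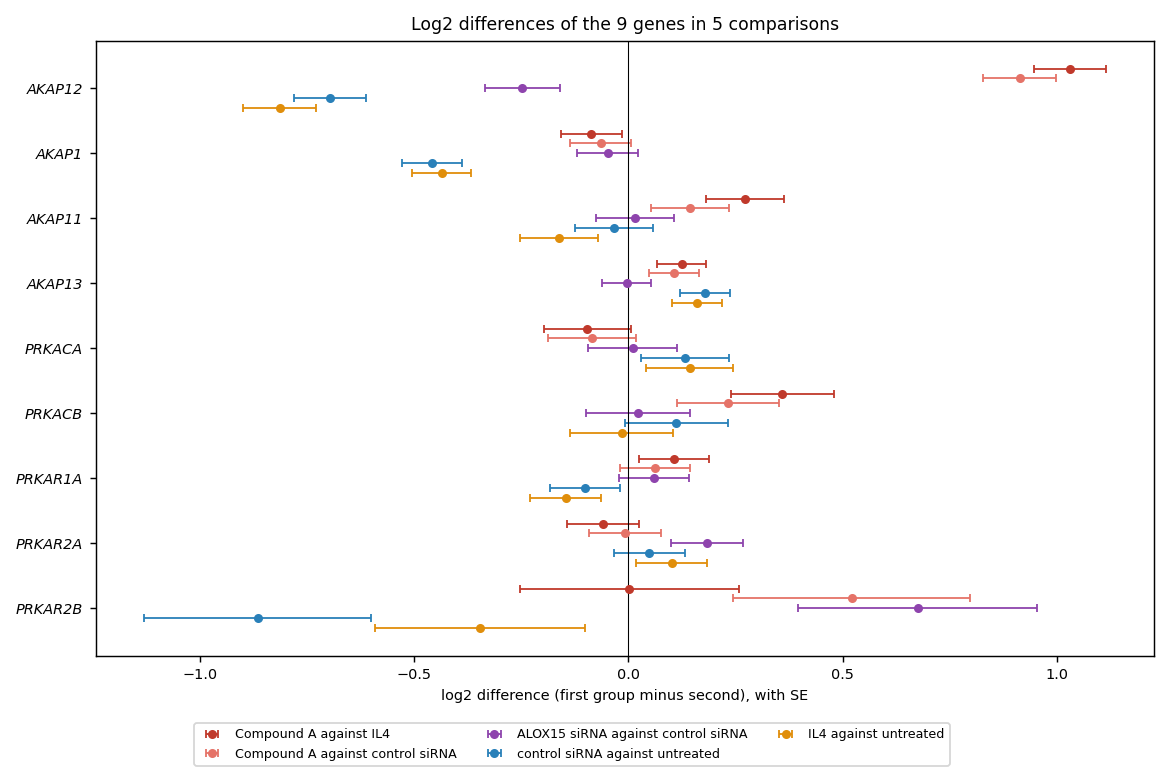
Log2 difference (horizontal axis, first-named group minus second) with its SE for each of the 9 genes in 5 comparisons, shown by colour. AKAP12 lies at 1.03 and 0.91 in the Compound A comparisons and at -0.70 and -0.81 in those with untreated cells, AKAP1 lies at -0.46 and -0.44 against untreated cells, and PRKAR2B has the longest error bars.

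The differences of IL4 replicate 1 from its mates went with GC content for the members at the high and low ends of GC content, but not among those in the middle. PRKACA and AKAP1, whose transcripts have 55.6% and 55% GC, were higher in it than in the mean of replicates 2 and 3, by 0.38 and 0.12 on the log2 scale. PRKACB, AKAP11, PRKAR2B and PRKAR1A, with 36.1%, 37.3%, 40.1% and 42.8% GC, gave log2 differences of -0.57, -0.39, -0.67 and -0.38. AKAP12, AKAP13 and PRKAR2A have nearly the same GC content, at 47.8%, 48.1% and 48.2%, and gave -0.25, -0.01 and 0.03. Over all genes the median of this difference ran from -0.40 for transcripts with up to 40% GC to 0.39 above 60% GC. It was -0.04 for those from 45% to 50% GC. With each library's trend on GC content removed, AKAP12 had a log2 difference of -0.81 (SE 0.07) between IL4 alone and untreated, and AKAP11 had one of 0.03 (SE 0.06), where it was -0.16 (SE 0.09) before, and -0.05 (SE 0.07) without IL4 replicate 1.

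**Figure D4:**
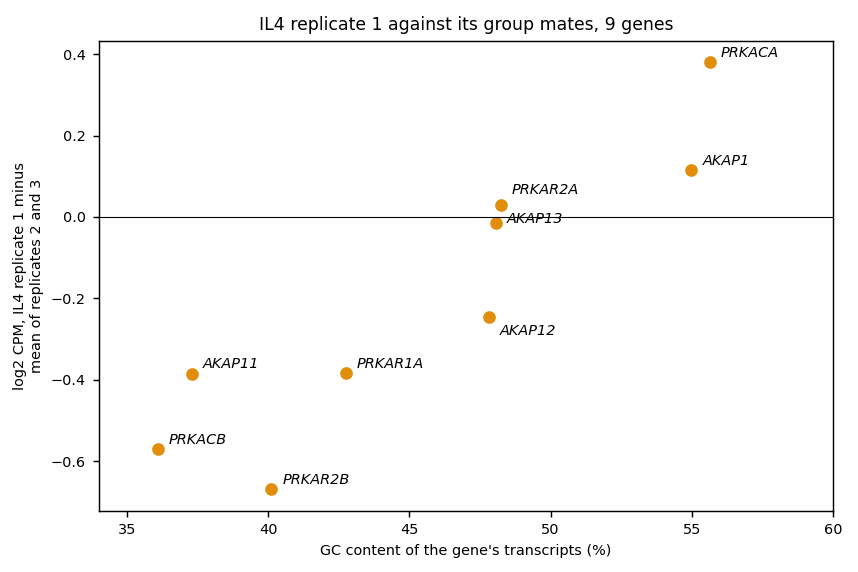
GC content of each gene's transcripts (horizontal axis, percent) against the log2 CPM of IL4 replicate 1 minus the mean of IL4 replicates 2 and 3 (vertical axis), 1 point per gene. The 4 genes under 43% GC lie between -0.67 and -0.38 and the 2 genes at 55% or above lie at 0.12 and 0.38. AKAP12, AKAP13 and PRKAR2A, with nearly the same GC content, lie at -0.25, -0.01 and 0.03.

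Across the 15 libraries the genes most like AKAP12 in log2 CPM were BTF3 (Pearson r = 0.956), ELF3 (0.952), SRGN (0.947), RPS7 (0.946) and ERMP1 (0.942), among 12698 genes with a mean of at least 1 CPM. These r values describe 5 groups that share their libraries, and the quartiles over all genes were -0.32 and 0.36. Spearman's rho was 0.82 for BTF3 and 0.91 for ELF3. ELF3, an epithelial transcription factor, averaged 129 ± 2.42 CPM with Compound A, 87.3 ± 2.48 with ALOX15 siRNA, 101 ± 3.45 with control siRNA, 98.9 ± 1.40 with IL4 alone and 122 ± 3.01 untreated, group means in the same order as those of AKAP12. The least like were CLDN2 (-0.984), a tight junction protein, ADGRG1 (-0.971), an adhesion receptor, and S100A10 (-0.966). CLDN2 averaged 171 ± 20.2 CPM with Compound A, 350 ± 2.90 with ALOX15 siRNA, 303 ± 13.7 with control siRNA, 355 ± 39.5 with IL4 alone and 203 ± 24.5 untreated. Of the other members, AKAP11 had the highest r with AKAP12, at 0.53, and PRKAR2A the lowest, at -0.49.

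Around the 9 genes, 149 others of the pathway were listed, of which 120 could be tested. With IL4 alone against untreated 17 of them rose and 22 fell, beside 11.2% and 11.6% of all genes. With control siRNA against untreated 16 rose and 20 fell, beside 9.93% and 9.36% of all genes. The list of 7 other subunits and inhibitors of the kinase, 5 of them tested, had no call in any comparison by edgeR or DESeq2, and 1 gene at an unadjusted p under 0.05 in edgeR, with Compound A against IL4 alone. PRKX, a related catalytic gene, had a mean of 34.4 ± 2.43 CPM in Compound A cells and one of 28.4 ± 1.79 CPM in IL4 cells.

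Several genes that break down cyclic AMP fell with IL4. Of 15 phosphodiesterase genes 13 were tested, and with IL4 alone against untreated 6 fell and none rose, beside 11.6% and 11.2% of all genes. The median log2 difference of the 13 was -0.27, against -0.02 over all genes. PDE7A averaged 11.5 ± 2.23 CPM with IL4 alone and 21.1 ± 0.472 CPM untreated (log2 difference -0.87, SE 0.15, edgeR adjusted p = 0.00015). PDE10A averaged 49.3 ± 10.5 CPM with IL4 alone and 79.1 ± 6.63 CPM untreated (-0.68, SE 0.11). PDE4B, the target of anti-inflammatory inhibitors, averaged 84.0 ± 9.82 CPM with IL4 alone and 124 ± 2.90 CPM untreated (-0.56, SE 0.08). PDE3A averaged 135 ± 17.0 CPM with IL4 alone and 190 ± 2.91 CPM untreated (-0.49, SE 0.08). PDE8A and PDE4D, an enzyme that AKAP12 is known to bind, fell too, by 0.33 and 0.49, and the call of PDE4D was lost without untreated replicate 2. With control siRNA against untreated 7 fell, the same 6 genes and PDE7B, and PDE8B rose, beside 9.36% of all genes fallen and 9.93% risen. Without IL4 replicate 1 the counts were 6 fallen with IL4 alone and 8 with control siRNA. The count with control siRNA was 4 without untreated replicate 2.

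With Compound A against IL4 alone none of the 13 phosphodiesterase genes passed in edgeR, beside 14.4% of all genes called. Of the 13, 7 had an unadjusted p under 0.05 in edgeR, and DESeq2 called 1. PDE4D had a mean of 599 ± 6.27 CPM in Compound A cells, against 464 ± 106 CPM in IL4 cells (log2 difference 0.37, SE 0.12, edgeR adjusted p = 0.059), and PDE7A had one of 14.5 ± 0.771 CPM in Compound A cells, against 11.5 ± 2.23 CPM in IL4 cells (0.35, SE 0.15, adjusted p = 0.13). Without IL4 replicate 1, 1 rose and 1 fell, without IL4 replicate 3, 4 rose and 1 fell, and with the GC correction 1 rose and 3 fell.

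**Figure D5:**
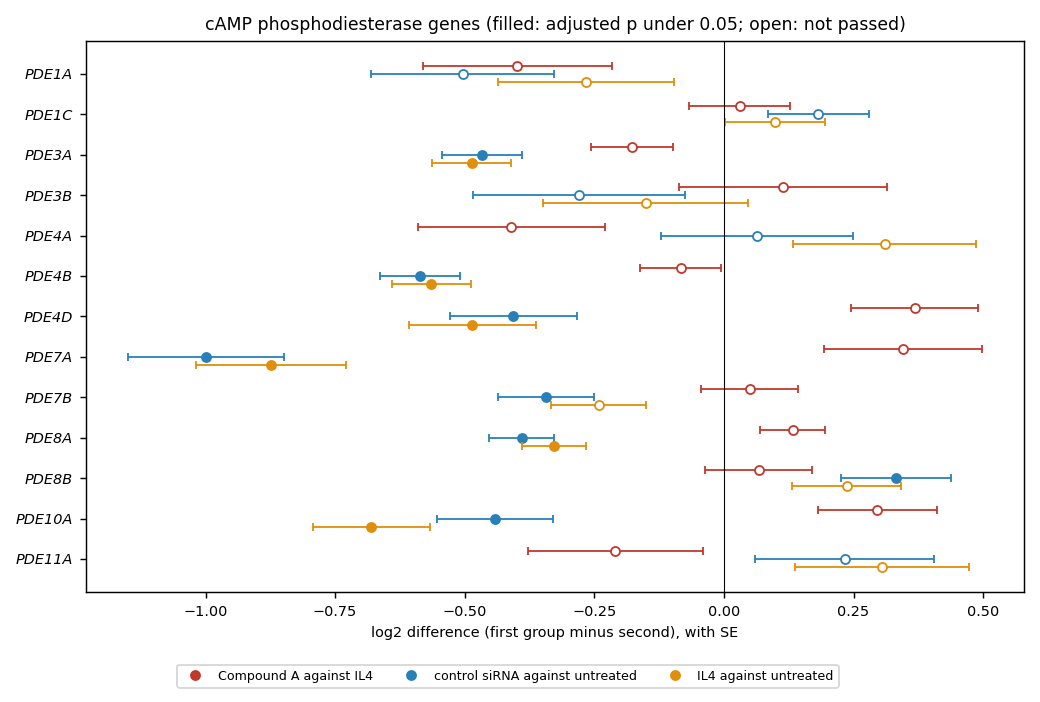
Log2 difference (horizontal axis, first-named group minus second) with its SE for the 13 tested phosphodiesterase genes in 3 comparisons; filled points passed an adjusted p of 0.05 and open points did not. Against untreated cells, PDE7A, PDE10A, PDE4B, PDE3A, PDE4D and PDE8A are filled and below 0 with IL4 alone and with control siRNA, and no point is filled for Compound A against IL4.

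The list for cyclic AMP synthesis, which holds receptors and stimulatory G proteins beside the cyclases that make it, moved both ways with IL4. Of 22 listed, 12 were tested, and 3 rose and 2 fell with IL4 alone against untreated, beside 11.2% and 11.6% of all genes. The adenylyl cyclase ADCY7 averaged 60.1 ± 5.12 CPM with IL4 alone and 29.3 ± 2.15 CPM untreated (log2 difference 1.05, SE 0.09, edgeR adjusted p = 3.1e-08), and ADCY9 (0.36, SE 0.09) and the cyclase-associated protein CAP1 (0.20, SE 0.05) rose less. The cyclase ADCY1 (-0.65, SE 0.17) and GNAL, a stimulatory G protein subunit (-0.50, SE 0.13), fell. None of the 12 passed with Compound A against IL4 alone in edgeR (2 at an unadjusted p under 0.05) or DESeq2, where edgeR called 14.4% of all genes. ADCY7 then averaged 55.2 ± 4.77 CPM with Compound A.

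Genes known to be induced through cyclic AMP and CREB split. Of 26 listed 23 were tested, and 4 rose and 10 fell with IL4 alone against untreated, beside 11.2% and 11.6% of all genes. Without IL4 replicate 1 the counts were 5 and 10. PDE4B and PDE4D, also on the phosphodiesterase list and counted there, are among the 10. The transcription factor gene NR4A2 averaged 11.8 ± 0.504 CPM with IL4 alone and 26.6 ± 3.18 CPM untreated (log2 difference -1.18, SE 0.14, edgeR adjusted p = 3.4e-06). Also fallen were its relative NR4A3 (-0.77, SE 0.18), the kinase SGK1 (-0.76, SE 0.10) and the coactivator PPARGC1A (-1.28, SE 0.33), which is at 1.51 ± 0.702 CPM with IL4 alone. RGS2 (1.47, SE 0.20), a brake on G protein signals, the transcription factor JUNB (1.13, SE 0.12), the phosphatase DUSP1 (0.86, SE 0.07) and IER2 (0.45, SE 0.09) rose.

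With Compound A against IL4 alone 3 CREB target genes rose and 3 fell, beside 6.35% and 8.07% of all genes. JUNB fell to 48.4 ± 1.38 CPM with Compound A, against 84.1 ± 17.5 CPM with IL4 alone (log2 difference -0.79, SE 0.12, edgeR adjusted p = 0.00033), and RGS2 (-0.73, SE 0.18) and IER2 (-0.48, SE 0.09) fell too. DUSP1 rose to 269 ± 27.5 CPM with Compound A, against 204 ± 9.78 CPM with IL4 alone (0.40, SE 0.07), as did BTG2 (0.46, SE 0.11), a growth inhibitor, and the growth factor AREG (0.42, SE 0.10). Against control siRNA, JUNB fell, and AREG, DUSP1 and SGK1 rose; the call of SGK1 held in 14 of 24 settings. Without IL4 replicate 1, 5 rose and 3 fell against IL4 alone.

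Of 28 other anchoring proteins 21 were tested. With IL4 alone against untreated 3 rose and 2 fell, about the share of all genes called (22.9%). With IL4 alone against untreated AKAP2 (log2 difference 0.89, SE 0.12, with fractional counts in 6 libraries), ezrin, EZR (0.44, SE 0.05), which links membrane to actin, and SYNM (0.21, SE 0.07) rose, and NBEA (-0.32, SE 0.09) and AKAP8 (-0.29, SE 0.10, passing in 9 of 24 settings) fell. With Compound A, EZR fell to 364 ± 13.7 CPM, against 460 ± 29 CPM with IL4 alone (-0.34, SE 0.05, edgeR adjusted p = 0.00031), and ARFGEF2 (0.28, SE 0.06), AKAP10 (0.25, SE 0.08) and AKAP9 (0.24, SE 0.07) rose, 4 of 21 where 14.4% of all genes were called. Without IL4 replicate 1, or any 1 Compound A library, that count was 1 risen and 1 fallen, and with only the compared groups in the fit 0 risen and 1 fallen.

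AKAP12 is known to bind protein kinase C, the mitotic kinase PLK1, calmodulin, cyclin D and the galactosyltransferase B4GALT1, and 19 such partners and neighbours were tested. With IL4 alone against untreated B4GALT1 (log2 difference 0.41, SE 0.04), PRKCZ (0.46, SE 0.12), CALM3 (0.42, SE 0.10) and PRKCE (0.40, SE 0.13) rose, and PLK1 (-0.54, SE 0.10), PDE4D and PRKCD (-0.37, SE 0.13, passing in 6 of 24 settings) fell. With Compound A against IL4 alone PLK1 fell to 27.8 ± 2.43 CPM, against 41.9 ± 7.27 CPM with IL4 alone (-0.59, SE 0.11, edgeR adjusted p = 0.0020), and PRKCE rose to 33.7 ± 2.85 CPM, against 23.7 ± 4.15 CPM with IL4 alone (0.51, SE 0.12). The focal adhesion kinase PTK2 rose too (0.20, SE 0.06), and B4GALT1 (-0.19, SE 0.04) and the actin-binding protein CTTN (-0.20, SE 0.05) fell. These are 4 risen and 3 fallen of 19 with IL4, and 2 risen and 3 fallen with Compound A, where 22.9% and 14.4% of all genes were called. Without IL4 replicate 1 the counts were 5 risen and 2 fallen with IL4, and 2 risen and 5 fallen with Compound A, and without Compound A replicate 2 0 rose and 2 fell with Compound A.

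Over all pathway genes, 11 rose and 9 fell with Compound A against IL4 alone, beside 6.35% and 8.07% of all genes. That count rested on single libraries: 9 rose and 11 fell without IL4 replicate 1, 5 rose and 6 fell without Compound A replicate 2, 7 and 6 without Compound A replicate 3, 21 and 19 without IL4 replicate 3, and 2 and 5 with only the compared groups in the fit. Against control siRNA 4 rose and 4 fell, beside 1.86% and 3.42% of all genes (5.28% together). With the spread estimated without IL4 replicate 1, which is not in that comparison, 14 rose and 13 fell. In a fit of the compared groups 15 rose and 13 fell, and without Compound A replicate 2, 0 rose and 1 fell.

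With ALOX15 siRNA against control siRNA, 3 of the 120 pathway genes passed, where 0.696% of all genes were called. PRKCA, a protein kinase C gene, averaged 331 ± 2.37 CPM with ALOX15 siRNA and 270 ± 10.5 CPM with control siRNA (log2 difference 0.30, SE 0.05, edgeR adjusted p = 0.0039) and held in all 24 settings. B4GALT1 rose by 0.23 (SE 0.04) and lost its call when any of the 6 compared libraries was left out. The lipase LIPE, a substrate of the kinase, fell to 0.279 ± 0.129 CPM with ALOX15 siRNA, against 1.38 ± 0.513 CPM with control siRNA, and held in 10 of 24 settings.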

How the data were processed

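RNA was sequenced from 15 A549 samples. The deposited table holds the authors' expected counts, which RSEM estimates for each gene, unscaled. Per the submitters' processing notes, Bowtie2 2.1.0, RSEM 1.2.15 and the hg38 genome were used. Strand use, read filters and the gene annotation are not given in the sources used here. Here the counts were rounded, filtered with filterByExpr (12795 of 26475 genes kept), scaled by TMM and fitted in 1 model of all 15 libraries, with 1 coefficient per group, by edgeR 4.0.16 (robust quasi-likelihood) in R 4.3.3. P-values were adjusted over all 12795 genes by the Benjamini-Hochberg method, at 0.05. The SE of a log2 difference is its absolute size over the square root of the F statistic. CPM are counts per 1e6 counts of the library after TMM scaling, and log2 CPM used a prior count of 2.

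The 9 genes and the gene lists were chosen with earlier results of these data known. The text names all 9 genes, ALOX15, up to 4 passing genes per direction of each list and comparison, and the 5 genes most and 3 least like AKAP12; PDE8A, PDE7B, PDE8B, PRKX and markers were named after their values were seen. The settings tried were each library left out in turn, a replicate block, only the compared groups in the fit, DESeq2 1.42.0, scaling by RLE or by the upper quartile, counts left unrounded, and either all genes with a count or those at 1 CPM in at least 3 libraries; a correction for transcript GC content (loess span 0.3) and the counts of pathway genes in each setting were added after the data were seen. The fit was tested on simulated counts. Exon lengths, GC content and positions came from GENCODE gene models on GRCh38, and start windows from a RefSeq table on GRCh38.p14, in which all 9 genes matched.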

Additional observations from a re-analysis of the deposited data

How the results depend on the processing

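AKAP12 kept the direction of its log2 difference in every setting and comparison run, and its calls with IL4 alone and with control siRNA. Its ALOX15 siRNA difference passed only with the compared groups alone (-0.25) and with the GC correction (-0.27), so 1 of the 9 genes was called in each. Other signs that turned belong to small differences. With IL4 alone PRKACB had 0.0069 under upper-quartile scaling, 0.0038 with compared groups only and 0.19 with the GC correction, where AKAP11 had 0.031. With the GC correction AKAP11 had 0.082 in control siRNA against untreated, AKAP1 0.0093 and PRKACA 0.029 in control siRNA against IL4, and AKAP11 -0.0089 and PRKACB -0.0053 in ALOX15 siRNA against control siRNA. AKAP13 had -0.0055 in control siRNA against IL4 under upper-quartile scaling. Signs turned with Compound A as well. Against IL4, the 24 settings ran from -0.18 to 0.043 for PRKACA, -0.010 to 0.20 for PRKAR1A and -0.19 to 0.20 for PRKAR2B. Against control siRNA they ran from -0.042 to 0.042 for PRKAR2A. Against untreated cells they ran from -0.0011 to 0.13 for PRKACA and from -0.046 to 0.00035 for PRKAR1A.

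With each library left out in turn, PRKACB ranged from -0.10 to 0.15 in IL4 against untreated, and AKAP11 from -0.088 to 0.034 in control siRNA against untreated. In control siRNA against IL4, AKAP1 ranged from -0.089 to 0.015, PRKACA from -0.10 to 0.13, PRKACB from -0.037 to 0.22 and PRKAR1A from -0.072 to 0.14. In ALOX15 siRNA against control siRNA, AKAP11 ranged from -0.051 to 0.084, AKAP13 from -0.054 to 0.026, PRKACA from -0.053 to 0.052, PRKACB from -0.052 to 0.076 and PRKAR1A from -0.00082 to 0.11. The 9 genes had 2 to 4 calls in control siRNA against untreated with libraries left out, and 5 with the GC correction, where PRKACB was added at 0.24. PRKAR1A passed in IL4 against untreated without IL4 replicate 3 (-0.24).

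Over all genes, the fit of the compared groups only called 1466 for IL4 against untreated, 325 for ALOX15 siRNA against control siRNA, 397 for Compound A against IL4 and 1768 for Compound A against control siRNA. The GC correction called 284 for ALOX15 siRNA, 1261 for Compound A against control siRNA and 1 for control siRNA against IL4, where DESeq2 called 2. With libraries left out the counts were 0 to 1 for control siRNA against IL4, 35 to 272 for ALOX15 siRNA, 769 to 3016 for Compound A against IL4 and 220 to 1638 for Compound A against control siRNA. A lone arm of 2 libraries shares the spread of the other groups in these fits.

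The deviations of same-numbered samples of the compared groups correlated at -0.128 to 0.286, and in no comparison were all 3 over 0.1. For IL4 against untreated they were 0.286, 0.077 and 0.110. In that comparison and in control siRNA against untreated, 4 of 6 samples correlated best with their own number, and 0 to 3 of 6 in the others. Whether same-numbered samples were handled together was not tested. With a replicate block, 3363 genes were called for IL4 against untreated (3 of the 9), 2739 for control siRNA against untreated (4 of the 9), 0 for control siRNA against IL4, 128 for ALOX15 siRNA against control siRNA (0 of the 9), and 2508, 939 and 3658 for Compound A against IL4, control siRNA and untreated cells. In no comparison did every sample correlate best with its own number. The cause of these changes was not tested. PRKAR2B, at 21 to 71 counts a library, is the member that depth limits most.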
